A study of Rattus norvegicus with 300 samples.

Results

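The genes described here mark the walls of brain blood vessels. They comprise 6 genes of mural cells, the smooth muscle cells and pericytes that wrap the vessel tube (Tagln, Myl9, Tpm2, Acta2, Rgs5 and Pdgfrb), and 3 genes of the endothelial cells that line it (Cldn5, Flt1 and Pecam1). They were taken by name from a count table of 17337 gene symbols, and all 9 were found there under their current rat symbols. The study asked how 3 antidepressants and a probiotic mixture change transcripts across the rat brain. Punches of 10 brain regions came from male Long Evans rats that were ordered at 60 days of age, and each region of each treatment had 5 libraries, which gave 60 groups and 300 libraries. Drinking water carried the treatment for 3 weeks. Control rats drank water alone, Maltodextrin rats drank it at 10 g/L, and a further group received Probiotics, whose dose the labels give in 2 ways that differ and which is not printed. Of the drugs, Desipramine was given at a daily dose of 7.5 mg/kg and Bupropion at 15 mg/kg. FT is the only label left once the others are matched, so by elimination it is the fluoxetine group, at 13 mg/kg a day. Each drug was set against Control, Probiotics against Maltodextrin, and Maltodextrin against Control, so comparisons that share a control group are not independent of each other. The labels do not say how many rats went into each pooled library, and the p-values measure the spread between libraries, which may in part be technical.

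Capillaries of the brain are tubes of endothelial cells joined by tight junctions, which form the blood-brain barrier, with pericytes embedded in the wall. Arterioles have a coat of smooth muscle instead, whose contractile proteins set the vessel's width and so the local blood flow. Pericytes are recruited by platelet-derived growth factor from the endothelium acting on the receptor that Pdgfrb encodes, and both cell types exchange angiopoietin, transforming growth factor, endothelin and Notch signals.

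The labels give regions as abbreviations (mPOA, BLA, Raphe, PLC, ILC, CGC, NACShell, LConly, venDG and dorDG), which are used here as given. Library totals ran from 198260 to 18310687 counts with a median of 9232563, and 4 Desipramine libraries lay under 1000000. Some groups went against their labels or stood apart. ILC of FT held 255 ± 39.4 CPM (each count divided by its library total and multiplied by 1000000) of Dbh, the noradrenaline-synthesis gene of the locus coeruleus, and LConly of FT held 0.651 ± 0.302 CPM, against 140 ± 12.8 CPM in LConly of Control (SD, n = 5 here and throughout unless stated). The libraries labelled ILC and LConly of FT thus carried each other's markers. ILC of Control and dorDG of Probiotics had 23.4 ± 2.48 and 28.6 ± 3.30 CPM of Slc17a7, a gene of excitatory neurons, while in Maltodextrin the same regions had 274 ± 10.6 and 444 ± 12.8 CPM. Actb, the cytoplasmic actin, was also low in these 2 groups, at 236 ± 51.9 and 244 ± 120 CPM against 2171 ± 107 and 4825 ± 373 CPM. Transthyretin (Ttr), a choroid plexus gene, reached 7956 ± 955 CPM in the BLA libraries of FT (29.8 ± 10.2 CPM in those of Control) and 5762 ± 721 CPM in the dorDG libraries of FT (31.7 ± 5.29 CPM in those of Control). Mbp, a myelin gene, was at 61170 ± 13800 CPM in BLA of FT against 12640 ± 1010 CPM in Control. Cd74, the invariant chain of antigen presentation, was high in 2 Control groups: venDG had 567 ± 13.8 CPM, where Maltodextrin had 17.7 ± 1.61 CPM, and BLA had 536 ± 48.5 CPM, where FT had 30.6 ± 5.57 CPM. Some all-region changes are given below without ILC and LConly, or with mPOA, Raphe, PLC, CGC and NACShell alone. The part of these groups in the other vessel gene values was not tested.

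Tagln, Myl9, Tpm2 and Acta2 encode parts of the contractile apparatus of smooth muscle: transgelin, a regulatory myosin light chain, beta-tropomyosin and smooth muscle actin. CPM are compared within a gene only, since they are not divided by transcript length. Tagln was highest in mPOA under all 6 treatments, and in 5 of them every mPOA library lay above every library of the other regions. The exception was Desipramine, where mPOA at 51.0 ± 4.06 CPM and CGC at 36.2 ± 5.81 CPM overlapped. In Control, Tagln stood at 206 ± 15.7 CPM in mPOA, 44.1 ± 1.93 CPM in ILC and 16.1 ± 1.08 CPM in NACShell, a range of 12.8-fold between regions. Acta2 in Control was 46.5 ± 2.86 CPM in mPOA and 10.4 ± 0.947 CPM in CGC, the next region, and mPOA led in 5 of 6 treatments. Its lowest Control value, 0.767 ± 0.255 CPM, was in ILC, the group with little Slc17a7 and Actb. Acta2 is close in sequence to the other actins, as Tpm2 is to the other tropomyosins, and how the authors counted reads shared within such families was not stated in the labels. Myl9 was highest in ILC of Control (142 ± 9.65 CPM), with mPOA next at 131 ± 4.58 CPM and overlapping ranges, and in the other treatments ILC of Maltodextrin had 50.3 ± 3.39 CPM and ILC of Probiotics 52.3 ± 2.57 CPM. Tpm2 led in mPOA under 3 treatments. Neighbouring regions in the order of levels were often not separable: of 54 neighbouring pairs over the 6 treatments, the ranges of 18 pairs did not overlap for Tagln, 12 for Myl9, 10 for Tpm2 and 10 for Acta2.

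In smooth muscle, serum response factor with its partner myocardin drives contractile genes through a sequence named the CArG box. The RefSeq promoter table (build GRCr8, whereas the counts were made on rn6) held 5 of the 9 members: Acta2, Tpm2, Rgs5, Cldn5 and Flt1. It did not hold Tagln, Myl9, Pdgfrb and Pecam1. The 250 bases upstream of the start are shown for a contractile and an endothelial gene, because the 4 contractile genes fell in mPOA with the drugs while Cldn5 changed less there. Capitals mark matches to CC, then 6 bases of which at least 5 are A or T, then GG, on either strand. This looser form was chosen after the sequences were seen, since none of the 5 promoters held the strict box with 6 of 6.
Acta2 (chr1:241172504-241172753, minus strand): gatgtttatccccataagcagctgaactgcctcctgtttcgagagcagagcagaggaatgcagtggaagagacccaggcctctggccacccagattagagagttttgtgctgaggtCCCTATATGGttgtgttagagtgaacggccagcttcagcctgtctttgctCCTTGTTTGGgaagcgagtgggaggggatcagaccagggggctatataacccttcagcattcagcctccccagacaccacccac
Cldn5 (chr11:95718599-95718848, minus strand): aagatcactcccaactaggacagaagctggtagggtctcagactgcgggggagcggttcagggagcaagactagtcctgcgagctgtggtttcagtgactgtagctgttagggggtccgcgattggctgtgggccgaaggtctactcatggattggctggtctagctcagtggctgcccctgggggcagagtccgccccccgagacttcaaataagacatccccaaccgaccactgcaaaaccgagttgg
Acta2 held 2 such matches, from -134 to -125 and from -84 to -75 relative to the start, and the other 4 promoters held 0. Of 33469 promoters of the same length, 8.08% held at least 1 such match, 0.693% held 2 or more, and 1.50% held the strict box. Because the looser form was chosen on these sequences, the shares do not measure how unusual the Acta2 matches are. Tpm2, the other contractile gene held, had 0 matches although it fell in mPOA too. A match describes the letters and is no evidence of binding.

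Rgs5, a regulator of G-protein signalling found in pericytes, and Pdgfrb had flatter profiles. In Control, Rgs5 ran from 17.3 ± 2.73 CPM in ILC to 38.9 ± 2.11 CPM in BLA, a 2.25-fold range, and mPOA was the sixth region in order. Pdgfrb in Control ran from 10.0 ± 0.744 CPM in LConly to 19.2 ± 0.561 CPM in CGC. Of the 54 neighbouring pairs, 9 had ranges that did not overlap for Rgs5 and 3 for Pdgfrb. Among the endothelial members, Cldn5, the main claudin of the barrier's tight junctions, was highest in CGC of Control at 82.1 ± 6.91 CPM and lowest in NACShell at 35.4 ± 2.93 CPM. Flt1, a receptor for vascular endothelial growth factor, ran in Control from 34.7 ± 3.36 CPM in venDG to 75.9 ± 9.21 CPM in LConly. Pecam1, an adhesion molecule of endothelial cell contacts, ran from 6.60 ± 1.18 CPM in ILC to 15.8 ± 1.47 CPM in BLA. The mPOA peak of the contractile genes was therefore not shared: mPOA was the highest region for none of Rgs5, Pdgfrb, Cldn5, Flt1 and Pecam1 under any treatment.

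Most mural members were lower in FT than in Control. Over all regions, 7 of 9 members were lower than in Control and 1 was higher in edgeR's quasi-likelihood test (Benjamini-Hochberg adjusted p under 0.05 over 15427 genes), against 35.0% of all genes lower and 26.9% higher. Averaged over the 10 regions, Tagln in replicates 1 to 5 was 46.3, 47.8, 48.7, 49.6 and 49.5 CPM in Control, and 23.2, 24.4, 23.6, 24.4 and 23.0 CPM in FT. The groups did not overlap, and the fitted log2 change was -1.19 (SE 0.04, adjusted p = 1.55e-20), or 2.29-fold lower. Myl9, which was high in ILC of Control, changed by -1.08 and without ILC and LConly by -0.745, Tpm2 by -0.73 and Acta2 by -0.64 (adjusted p = 1.76e-18, 6.42e-15 and 1.00e-10 with all regions).

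Rgs5 fell in FT more evenly than the contractile genes. Its mean over regions was 29.1, 26.7, 29.7, 29.0 and 29.6 CPM in the Control replicates and 17.5, 15.9, 16.5, 15.3 and 14.3 CPM in the FT replicates. Every FT value lay below every Control value, and the fitted change was -1.02 (SE 0.04, adjusted p = 4.87e-19). It was lower in FT in 10 of 10 regions, each past the threshold, from -0.42 in ILC to -1.36 in dorDG. The ILC value is the least firm: mean Rgs5 there was 17.3 ± 2.73 CPM in Control and 17.6 ± 1.96 CPM in FT, the fall came with TMM scaling, and with raw library totals the change was 0.02 (adjusted p = 0.880). Both ILC and LConly of FT also carry each other's markers, and of the 8 other regions BLA (-0.77) and dorDG (-1.36) of FT held much Ttr. In mPOA, Raphe, PLC, CGC and NACShell, the change of Rgs5 ran from -0.80 to -1.32. The mean Rgs5 of FT, 15.89 ± 1.2 CPM, was also below that of Bupropion (26.2 ± 1.24), Desipramine (28.2 ± 1.49), Probiotics (30.4 ± 1.78) and Maltodextrin (33.2 ± 1.35 CPM). Pdgfrb, the other pericyte gene, was not called in FT (-0.06, SE 0.05, adjusted p = 0.359), with group means of 14.9 ± 1.23 CPM in FT and 13.97 ± 0.622 CPM in Control.

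**Figure D1:**
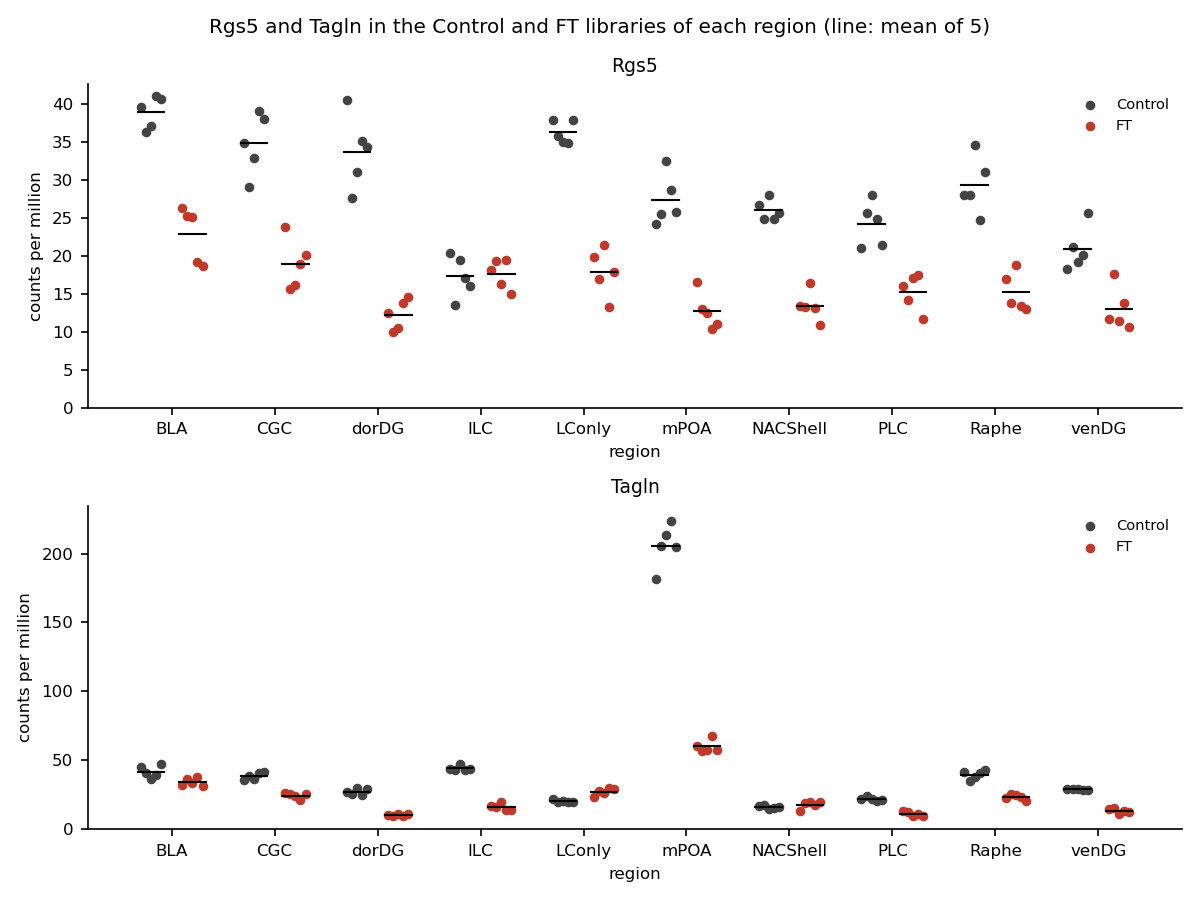
Rgs5 and Tagln in CPM (y axis) in each of 10 regions (x axis); points are the 5 Control and 5 FT libraries and lines their means. Rgs5 of FT lies between 12.2 and 22.9 CPM as group means and below Control in all regions except ILC, while the gap in Tagln is widest in mPOA (206 against 60.0 CPM).

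The endothelial members moved less and not in 1 direction in FT. Pecam1 was lower (-0.44, SE 0.04, adjusted p = 5.13e-11), at 9.27 ± 0.681 CPM against 11.3 ± 0.557 CPM in Control without overlap. Cldn5 was called lower by -0.18 (SE 0.05, adjusted p = 0.00347), but its mean CPM over regions was 51.7 ± 3.91 in FT and 51.2 ± 3.75 in Control. With raw library totals in place of TMM scaling, which moved the median of all genes by 0.175 in this comparison, the change of Cldn5 was 0.01 (adjusted p = 0.922). Flt1 was higher by 0.11 (SE 0.04, adjusted p = 0.01996). Its FT replicates were 82.7, 62.6, 62.7, 64.8 and 63.0 CPM, and without FT replicate 1 the change was 0.04 (adjusted p = 0.0895), while without mPOA it was 0.09 (adjusted p = 0.0634). In single regions, 50 of 90 member-by-region tests were lower and 12 higher, against 26.3% and 27.1% of all such tests. By class, 39 of 60 mural and 11 of 30 endothelial tests were lower.

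**Figure D2:**
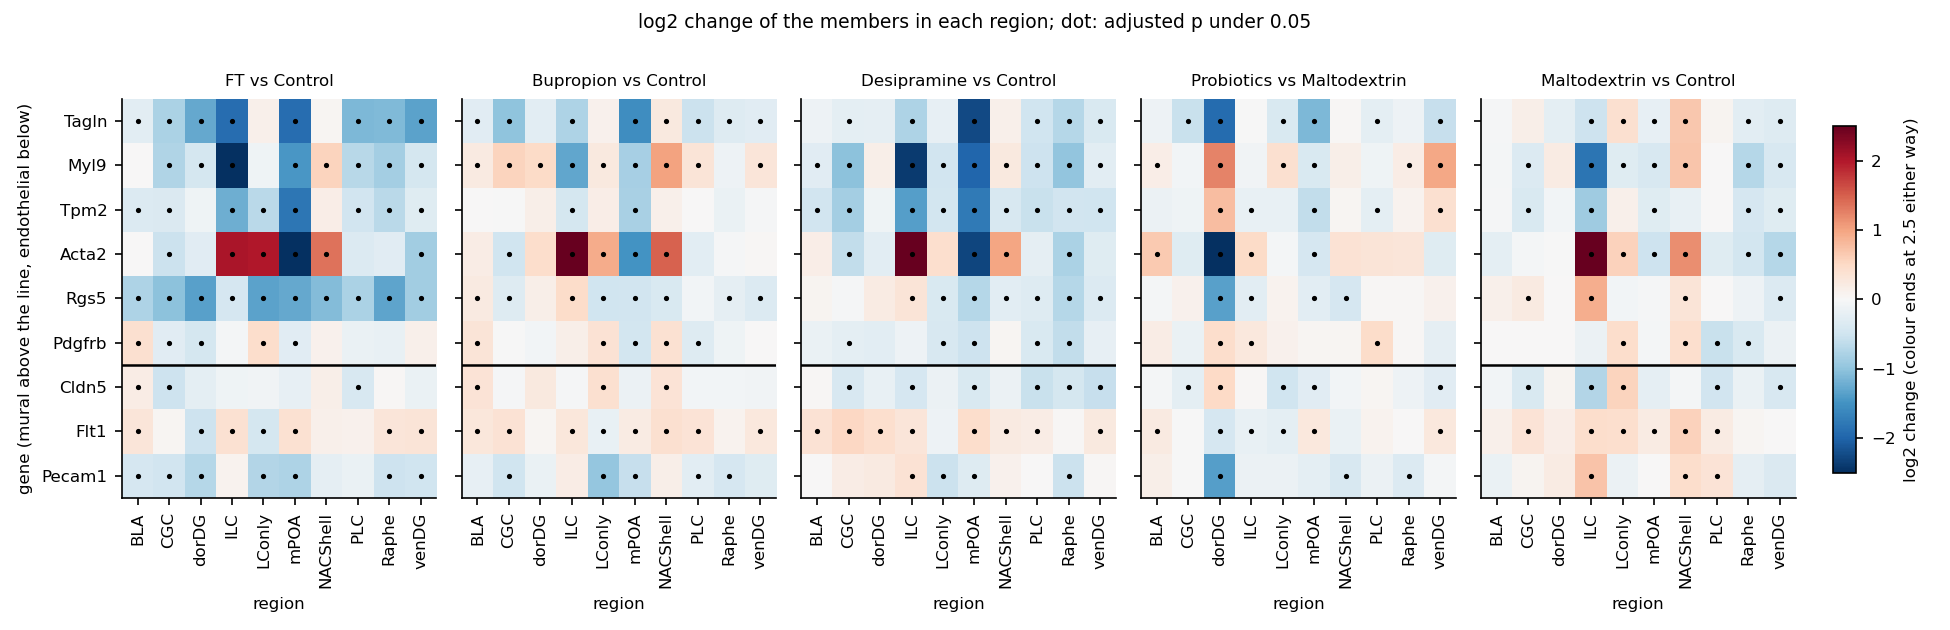
Fitted log2 change (colour, blue lower, red higher) of the 6 mural members above the line and the 3 endothelial members below it, in each region (x axis) and for each of 5 comparisons (panels); a dot marks an adjusted p under 0.05. Rgs5 is blue in every region of FT against Control, Tagln, Myl9, Tpm2 and Acta2 are blue in mPOA in all 5 panels, and the ILC columns against Control run from Myl9 at -2.74 to Acta2 at 2.96.

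In mPOA, the region with the most Tagln and Acta2, all 3 drugs came with lower contractile gene levels. Of the 9 members, 7 were lower in FT (23.3% of all genes), 7 in Bupropion (18.6%) and 8 in Desipramine (32.5%). Tagln in replicates 1 to 5 of mPOA was 181, 205, 214, 224 and 205 CPM in Control, 60.4, 57.0, 57.6, 67.5 and 57.8 CPM in FT, 74.9, 71.2, 61.0, 70.5 and 63.6 CPM in Bupropion, and 54.5, 44.1, 52.0, 51.2 and 53.4 CPM in Desipramine. No drug library reached the lowest Control library. The changes were -1.91 in FT (SE 0.07, adjusted p = 5.02e-21), -1.56 in Bupropion (SE 0.07, adjusted p = 1.10e-17) and -2.25 in Desipramine (SE 0.07, adjusted p = 5.08e-22).

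Acta2 was lower in mPOA in all 3 drugs as well. Its mPOA libraries were at 48.0, 46.9, 50.3, 43.5 and 43.9 CPM in Control, 13.7, 5.70, 9.92, 9.09 and 7.95 CPM in FT, 17.3, 18.6, 15.3, 15.9 and 13.1 CPM in Bupropion, and 10.3, 10.7, 9.83, 12.6 and 12.5 CPM in Desipramine. Again no drug library overlapped Control, with changes of -2.51, -1.50 and -2.29 (SE 0.11, 0.10 and 0.11). The fewest Acta2 counts in any of these libraries was 37. Within mPOA, Actb too was highest in Control, at 5830 ± 510 CPM against 3120 ± 341 in FT, 3320 ± 236 in Bupropion and 1910 ± 126 CPM in Desipramine. Its part in the Acta2 values was not tested. Myl9 went from 131 ± 4.58 CPM in Control to 52.1 ± 4.27 in FT, 71.7 ± 5.26 in Bupropion and 39.3 ± 2.77 CPM in Desipramine. Tpm2 went from 105 ± 10.7 CPM to 32.7 ± 1.55, 57.8 ± 1.99 and 36.2 ± 2.57 CPM. Both genes fell in all 3 drugs, with changes of -1.46, -0.83 and -1.98 for Myl9 and -1.81, -0.82 and -1.77 for Tpm2.

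The pericyte genes were lower in mPOA too. Rgs5 fell by 1.28 in FT, 0.48 in Bupropion and 0.71 in Desipramine on the log2 scale, from 27.3 ± 3.30 CPM in Control to 12.7 ± 2.40, 19.0 ± 1.75 and 19.7 ± 1.92 CPM. Pdgfrb went from 17.2 ± 1.22 CPM to 15.3 ± 2.78, 12.2 ± 1.71 and 13.95 ± 2.60 CPM, and was called lower in Bupropion (-0.46, adjusted p = 0.00117) and Desipramine (-0.53, adjusted p = 1.81e-04). Its call in FT (-0.28, adjusted p = 0.0411) was lost with raw library totals (adjusted p = 0.297) and without replicate 1, 3 or 4. Cldn5 was at 53.2 ± 2.81 CPM in Control and between 46.7 and 50.5 CPM in the drug groups, and was called in Desipramine alone (-0.38, SE 0.10). Flt1 was higher in FT (59.6 ± 9.95 CPM) and Desipramine (65.6 ± 4.39 CPM) than in Control (41.3 ± 3.26 CPM), without overlap, with changes of 0.37 and 0.43. In Bupropion it was 46.3 ± 5.59 CPM, overlapping Control, with a change of 0.20 (adjusted p = 0.0147) that was not called without replicate 1 or 5. Pecam1 fell in FT (-0.77) and Bupropion (-0.58), to 8.79 ± 1.37 and 8.80 ± 1.58 CPM from 13.6 ± 1.84 CPM, without overlap. In Desipramine it was called lower too (-0.32, adjusted p = 0.0257), at a mean of 12.7 CPM that overlapped Control.

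**Figure D3:**
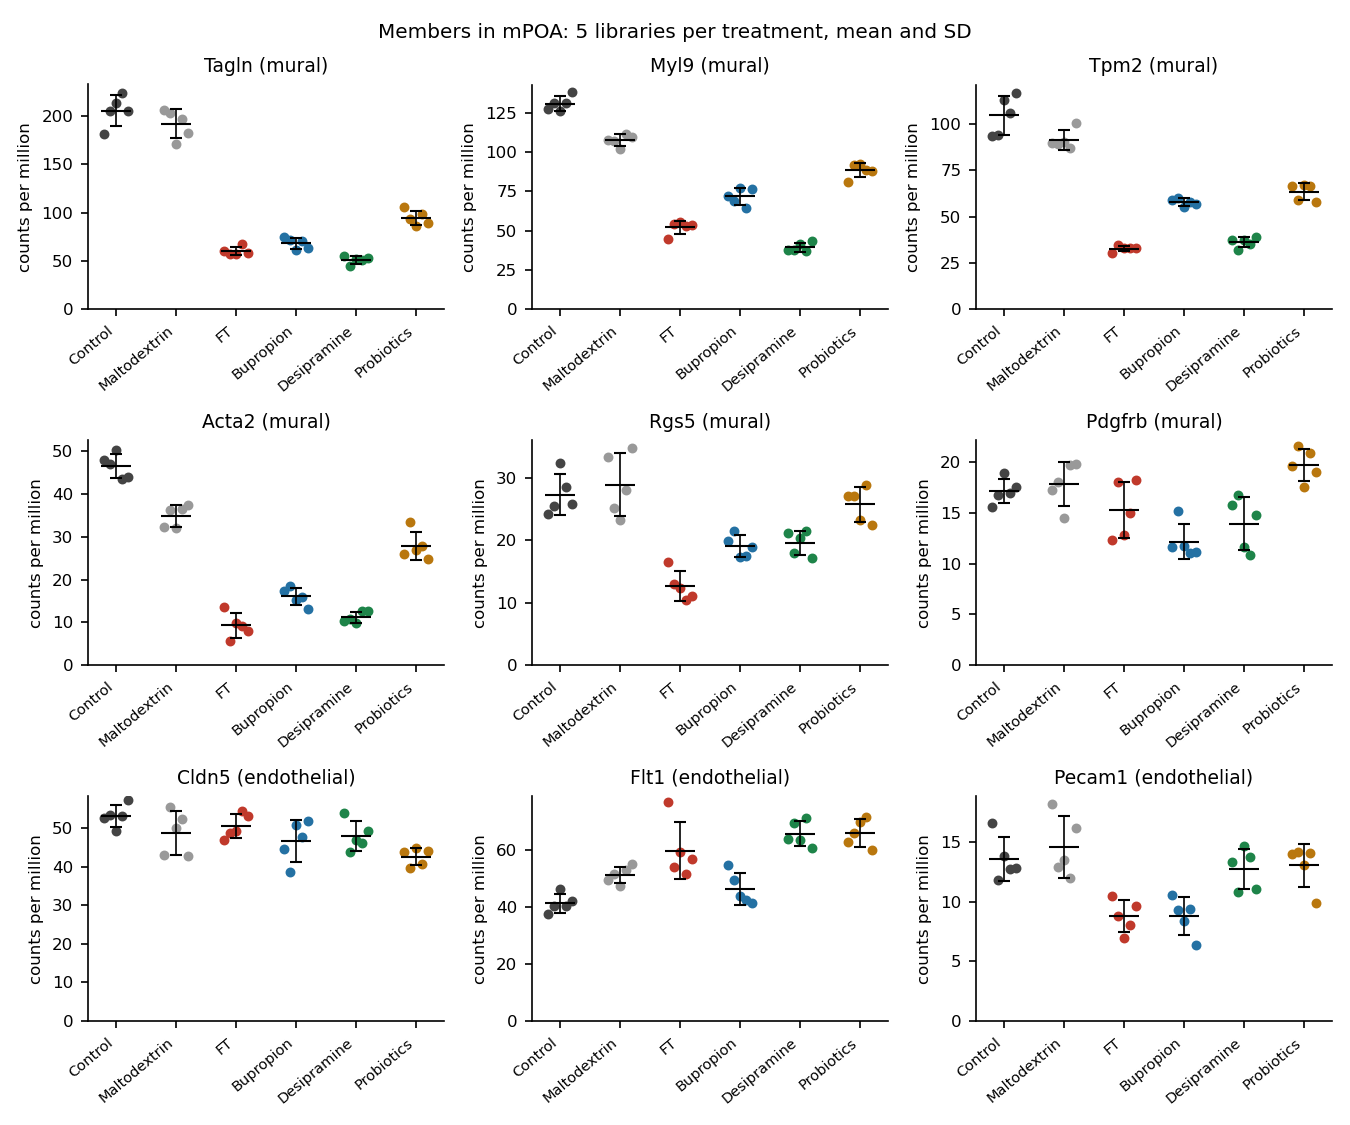
CPM (y axis, from 0) of the 9 members in mPOA under each treatment (x axis); points are the 5 libraries, horizontal marks the mean and bars the SD. The 4 contractile genes are high in Control and Maltodextrin and low in the 3 drug groups (Tagln at 206 and 192 against 51.0 to 68.2 CPM), while Cldn5 spans 42.6 to 53.2 CPM over all 6 treatments.

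Other cell types moved in mPOA beside these genes, where 23.3% of all genes were lower in FT, 18.6% in Bupropion and 32.5% in Desipramine. Of 16 measured genes of leptomeninges and fibroblasts, 12 were lower in each drug group than in Control. Higher were 1 in FT, 0 in Bupropion and 0 in Desipramine. Their medians were -1.05 in FT, -0.83 in Bupropion and -0.83 in Desipramine, where the median of all genes was 0.0094, 0.0013 and -0.0038. Their summed level was 449 to 534 CPM in Control, 277 to 351 in FT, 262 to 300 in Bupropion and 312 to 333 CPM in Desipramine, and none of the 16 was at 0 in any group. Lum, a proteoglycan gene of fibroblasts, fell from 24.3 ± 3.59 to 10.2 ± 4.46 CPM in FT, and Slc6a13, a transporter gene of the leptomeninges, from 22.1 ± 1.84 to 8.55 ± 2.01 CPM. Of 9 oligodendrocyte genes, 9 were lower and 0 higher in FT, 3 and 2 in Bupropion, and 8 and 1 in Desipramine. Their summed level was 50650 to 62340 CPM in Control, 21450 to 32900 in FT, 48920 to 61120 in Bupropion and 26380 to 32720 CPM in Desipramine. In the same order, the counts were 13 and 1, 12 and 0, and 13 and 1 of 23 further mural genes. They were 14 and 1, 12 and 4, and 12 and 4 of 29 further endothelial genes. Of 15 microglia and macrophage genes they were 9 and 1, 2 and 4, and 8 and 3, with the lower count in Bupropion under the share of all genes. Pomc, a neuropeptide precursor gene of hypothalamic neurons looked up after the data were seen, was at 375 ± 112 CPM in FT against 3.34 ± 1.07 CPM in Control, 5.24 ± 1.02 in Bupropion and 2.37 ± 0.490 CPM in Desipramine. The part that these other cells play in the vessel gene values was not tested. In bulk tissue, fewer cells of a type and less RNA per cell cannot be told apart.

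The all-region changes of the contractile genes lean on mPOA to different degrees. Without mPOA, an alternative chosen after seeing the data, Acta2 turned from -0.64 to 0.18 in FT (adjusted p = 0.0123), from -0.34 to 0.30 in Bupropion (adjusted p = 6.43e-05) and from -0.70 to 0.04 in Desipramine (adjusted p = 0.562). Outside mPOA its mean was 4.49 ± 0.270 CPM in Control, 5.73 ± 0.721 in FT, 5.51 ± 0.404 in Bupropion and 5.05 ± 0.467 CPM in Desipramine. Those values include ILC of Control, where Acta2 was at 0.767 ± 0.255 CPM. In single regions of FT, Acta2 was called lower in 3 and higher in 3, and without ILC and LConly its all-region change was -1.03. With limma on the mean over regions, which weights regions equally, the change in FT was -0.01 (adjusted p = 0.835). In NACShell, Acta2 was called higher in all 3 drugs, by 1.35 in FT, 1.47 in Bupropion and 0.99 in Desipramine. Myl9 was called higher there too, by 0.56, 1.01 and 0.24 in the same order. Tpm2 was called lower in Desipramine (-0.40), and Tagln was called in Bupropion alone (0.25). These changes share the Control libraries of NACShell. Every Maltodextrin library of NACShell also lay above them for Acta2 and Myl9. Tagln without mPOA was -0.86 in FT, -0.41 in Bupropion and -0.42 in Desipramine, each still past the threshold. Its mean CPM outside mPOA was 30.9 ± 0.868 in Control, 19.7 ± 0.673 in FT, 24.0 ± 1.07 in Bupropion and 26.6 ± 1.79 in Desipramine.

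Bupropion had the smallest median change of the mural members among the 3 drugs. Over all regions 6 of 9 were lower and 1 higher, against 36.5% and 21.6% of all genes. Tagln changed by -0.76 (SE 0.04, adjusted p = 1.06e-15), with replicates at 29.6, 28.4, 27.6, 27.4 and 29.3 CPM, all below Control. Pecam1 changed by -0.33 (SE 0.04, adjusted p = 1.75e-08), with 9.00 ± 0.293 CPM against 11.3 ± 0.557 CPM and no overlap. Rgs5 was lower by 0.13 with overlapping replicates, and Flt1 was higher by 0.20 (63.1 ± 1.23 against 55.2 ± 1.95 CPM, no overlap). Neither Pdgfrb (0.01) nor Cldn5 (0.06) was called. Myl9 changed by -0.27 over all regions, yet in single regions it was called higher in 7 and lower in 2. The 2 were mPOA (-0.83) and ILC (-1.30), and without ILC and LConly the all-region change was 0.04 (adjusted p = 0.467). In single regions, 27 of 90 tests were lower and 26 higher (23.4% and 22.9% of all tests), near the background in both directions.

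In Desipramine, all 6 mural members were called lower than in Control over all regions. In total 7 of 9 members were lower and 1 higher, against 44.6% and 26.0% of all genes. Myl9 changed by -1.16 (SE 0.04, adjusted p = 4.87e-19), and without ILC and LConly by -0.855, where Tagln changed by -0.951. Its replicates were 54.1, 53.4, 52.5, 53.4 and 55.4 CPM in Control and 27.0, 27.7, 29.9, 28.7 and 30.9 CPM in Desipramine, without overlap. Tpm2 changed by -0.80 (SE 0.04) and was lower in 10 of 10 regions, past the threshold in 9. Its replicates were 45.3, 48.8, 48.3, 49.2 and 50.5 CPM in Control and 31.1, 31.6, 29.7, 32.0 and 34.9 CPM in Desipramine, again without overlap. Tagln changed by -0.88 and Acta2 by -0.70, but Acta2 had this sign in 6 of 10 regions, with 3 called lower and 2 higher. Rgs5 (-0.21) and Pdgfrb (-0.32) changed less and their replicates overlapped Control. With raw library totals, which moved the median of all genes by 0.208, Rgs5 was at 0.00 (adjusted p = 0.980). Of the endothelial members, Cldn5 was lower by 0.37 on the log2 scale (SE 0.05), with the same sign in 9 regions, while its CPM overlapped (47.0 ± 1.13 against 51.2 ± 3.75). Flt1 was higher by 0.23 (SE 0.04), at 75.4 ± 2.57 CPM against 55.2 ± 1.95 CPM without overlap, and was called higher in 8 regions. Pecam1 was not called (-0.07, adjusted p = 0.0817), and with raw library totals it was higher by 0.14 (adjusted p = 0.00816). In single regions 46 of 90 tests were lower and 13 higher, against 27.9% and 26.4% of all tests, and 37 of the lower ones were mural.

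Probiotics against Maltodextrin gave no common direction. Over all regions 3 of 9 members were lower and 2 higher (22.5% and 33.3% of all genes), and in single regions 26 of 90 tests were lower and 16 higher (21.1% and 21.7%). Tagln had the largest change, -0.58 (SE 0.04, adjusted p = 1.95e-13): its replicates were 50.8, 48.3, 46.4, 46.9 and 47.0 CPM in Maltodextrin and 35.3, 33.9, 32.3, 33.1 and 31.2 CPM in Probiotics, without overlap. In mPOA, 6 of 9 members were lower (17.3% of all genes), with Tagln at 206, 204, 171, 197 and 183 CPM in Maltodextrin and 105, 93.5, 85.6, 98.4 and 89.6 CPM in Probiotics (-1.12, SE 0.07). Those groups did not overlap either. The leptomeningeal and fibroblast list moved there as well, with 12 of 16 genes lower and a summed level of 613 to 664 CPM in Maltodextrin and 402 to 462 CPM in Probiotics, and its part in the result was not tested. Flt1 was higher in mPOA by 0.27, from 51.1 ± 2.94 to 65.9 ± 4.75 CPM, without overlap. In mPOA of Maltodextrin against Control, the leptomeningeal and fibroblast list had a median change of 0.43 (all genes 0.02). Of its 16 genes, 1 was lower there (19.0% of all genes). Tagln (-0.21), Myl9 (-0.39), Tpm2 (-0.30) and Acta2 (-0.52) were lower in that comparison.

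The largest Probiotics change of a member, that of Acta2 (-3.07), was in dorDG, the group with little Slc17a7 and Actb. There Acta2 was 3.88, 2.40, 4.02, 3.57 and 3.71 CPM in Maltodextrin and 0.328, 0.494, 0.163, 0.761 and 0.102 CPM in Probiotics, where the fewest counts in a library was 1. Tagln fell from 22.7 ± 2.99 to 5.5 ± 2.07 CPM, Rgs5 from 33.3 ± 3.06 to 12.04 ± 2.25 CPM and Pecam1 from 12.2 ± 2.11 to 4.41 ± 0.903 CPM. Myl9 rose from 28.3 ± 2.74 to 62.7 ± 13.9 CPM and Tpm2 from 25.9 ± 3.57 to 41.8 ± 6.74 CPM. The members thus split within the contractile group in these libraries, as they did in ILC of Control. The all-region rise of Myl9 (0.20, adjusted p = 1.77e-04) turned with the regions used: with 5 regions alone (mPOA, Raphe, PLC, CGC and NACShell) it was -0.14 (adjusted p = 0.01). The call of Pdgfrb (0.14, adjusted p = 0.0315) was lost there too (0.07, adjusted p = 0.387), and also when Probiotics replicate 3 or 5 or Maltodextrin replicate 2 or 3 was left out. Pecam1 was lower over all regions by 0.22 on the log2 scale (SE 0.04), without overlap, and in those 5 regions, which leave out dorDG, it was -0.202 (adjusted p = 0.00235). Tagln in the same 5 regions was -0.67 (adjusted p = 4.25e-13).

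Maltodextrin itself differed from Control. Over all regions 5 of 9 members were lower and 2 higher (30.5% and 18.0% of all genes), in mPOA 4 were lower (19.0%), and in single regions 25 of 90 tests were lower and 21 higher (19.5% and 18.4%). Myl9 was lower by 0.61 on the log2 scale (SE 0.04), at 40.2, 41.9, 40.4, 40.7 and 40.3 CPM against 52.5 to 55.4 CPM in Control, without overlap. Myl9 was high in ILC of Control, and without ILC and LConly its change was -0.252 (adjusted p = 5.18e-05). Flt1 was higher by 0.27 (SE 0.04) with the same sign in 10 of 10 regions, at 71.3, 73.3, 72.3, 71.3 and 68.1 CPM against 53.0, 53.5, 55.6, 56.1 and 57.7 CPM, again without overlap. Rgs5 was higher by 0.11 (adjusted p = 0.0199), a call lost without Maltodextrin replicate 1 or Control replicate 2, and without ILC and LConly (0.02, adjusted p = 0.652). Acta2 was lower by 0.19 over all regions and by 0.52 in mPOA, and was at 0.07 without mPOA (adjusted p = 0.317).

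Because Flt1 and Myl9 differed between the 2 control groups, the drugs were also set against Maltodextrin. Tagln, Myl9, Tpm2, Rgs5 and Acta2 were still lower in FT (-1.06, -0.46, -0.45, -1.13 and -0.46) and in Desipramine (-0.75, -0.55, -0.52, -0.32 and -0.52). In mPOA the 4 contractile genes were lower in all 3 drugs against Maltodextrin, with Tagln at -1.70 in FT, -1.35 in Bupropion and -2.04 in Desipramine. Flt1 turned: over all regions it was -0.16 in FT (adjusted p = 0.00104), -0.07 in Bupropion (adjusted p = 0.125) and -0.04 in Desipramine (adjusted p = 0.375). Myl9 in Bupropion became 0.34 (adjusted p = 5.02e-08). In mPOA, Flt1 was still higher than in Maltodextrin in FT (0.17, adjusted p = 0.0329) and Desipramine (0.23, adjusted p = 0.00462), and was at -0.0019 in Bupropion.

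All 9 members differed in their change between regions in each of the 5 comparisons (edgeR interaction test over 9 terms), as did 92.6% of all genes in FT, 90.2% in Bupropion, 87.2% in Desipramine, 82.3% in Probiotics and 89.8% in Maltodextrin. That count is near the background. ILC shows how far single regions went: against Control, Acta2 there was 2.04 in FT, 2.91 in Bupropion, 2.96 in Desipramine and 2.72 in Maltodextrin, while Myl9 was -2.74, -1.30, -2.39 and -1.82. All 8 values share ILC of Control. Against Maltodextrin, Acta2 in ILC of FT was -0.67 and Myl9 in ILC of Bupropion 0.52.

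Set side by side, the mural members had the lower median change in all 5 comparisons over all regions. In FT the medians were -0.88 for the 6 mural and -0.18 for the 3 endothelial members, where the median of all genes was -0.04. In Desipramine they were -0.75 and -0.07 (all genes -0.12), in Bupropion -0.23 and 0.06 (all genes -0.07), in Probiotics -0.10 and -0.08 (all genes 0.07), and in Maltodextrin -0.16 and 0.07 (all genes -0.05). By region, the mural median lay below the endothelial median in 10 of 10 regions for Desipramine, 7 for FT, 7 for Bupropion, 7 for Maltodextrin and 6 for Probiotics. The exceptions in FT were LConly, NACShell and dorDG.

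Per treatment replicate, the mean log2(CPM + 0.5) of the mural members minus that of the endothelial members was -0.45 ± 0.05 in Control, -0.56 ± 0.02 in Maltodextrin, -0.50 ± 0.04 in Bupropion, -0.51 ± 0.03 in Probiotics, -0.84 ± 0.06 in FT and -0.87 ± 0.10 in Desipramine (SD, n = 5 treatment replicates). FT ran from -0.95 to -0.78 and Desipramine from -0.97 to -0.76, below the lowest value of the other 4 treatments, -0.58 in Maltodextrin. In mPOA alone the difference was 1.01 ± 0.09 in Control, 0.78 ± 0.08 in Maltodextrin, 0.41 ± 0.07 in Probiotics, 0.25 ± 0.11 in Bupropion, -0.33 ± 0.09 in FT and -0.47 ± 0.10 in Desipramine. The ranges of the 2 control groups there lay above those of the 3 drugs and of Probiotics. Without mPOA, FT (-0.90 ± 0.06) and Desipramine (-0.92 ± 0.10) remained below Control (-0.61 ± 0.05), and Bupropion (-0.59 ± 0.05) did not. No p is given for this score.

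**Figure D4:**
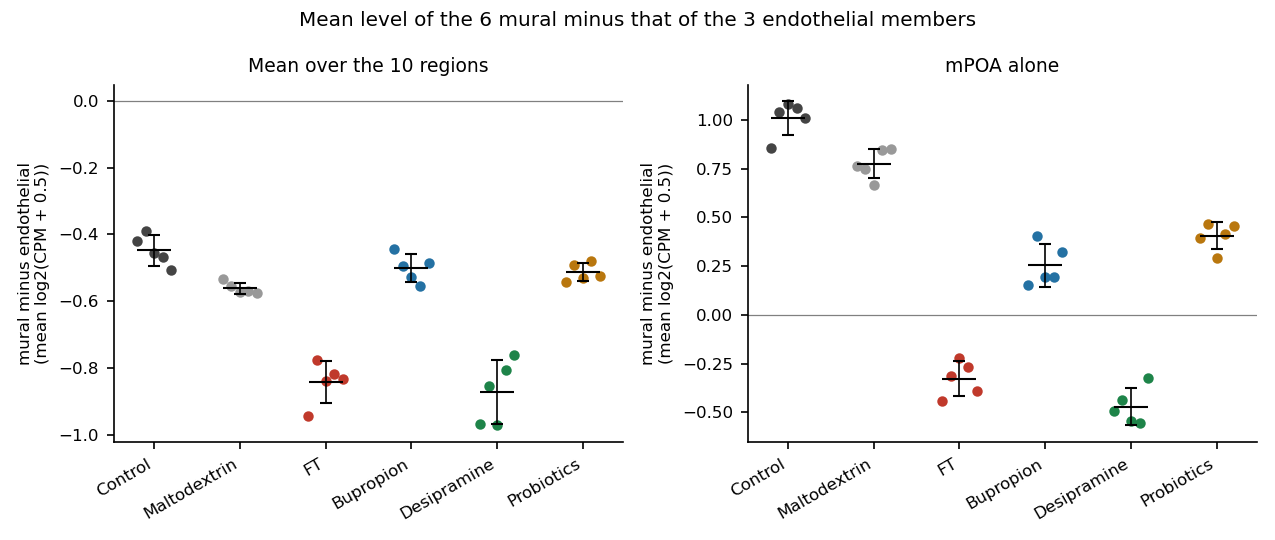
Mean log2(CPM + 0.5) of the 6 mural minus that of the 3 endothelial members (y axis) for the 5 replicates of each treatment (x axis), averaged over 10 regions (left) and in mPOA (right); marks and bars are mean and SD. FT and Desipramine sit lowest in both panels, at -0.84 and -0.87 on the left and -0.33 and -0.47 on the right.

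Other vessel genes were read from lists of mural and endothelial markers. Over all genes, 35.0% were lower and 26.9% higher in FT, 44.6% and 26.0% in Desipramine, 36.5% and 21.6% in Bupropion, 22.5% and 33.3% in Probiotics, and 30.5% and 18.0% in Maltodextrin, with medians of -0.04, -0.12, -0.07, 0.07 and -0.05. Of 23 further smooth muscle and pericyte genes, 14 were lower and 2 higher over all regions in FT (median -0.19), 14 lower and 4 higher in Desipramine (median -0.26), 9 lower and 4 higher in Bupropion (median -0.10), 3 lower and 10 higher in Probiotics (median 0.11), and 8 lower and 2 higher in Maltodextrin (median -0.07). The counts of lower genes in Bupropion and Maltodextrin were near the shares of all genes. Vtn, which encodes vitronectin and is made by pericytes in brain, was lower in FT (-0.88, SE 0.05), Bupropion (-0.54), Desipramine (-0.77) and Maltodextrin (-0.43). Myh11, the smooth muscle myosin heavy chain, was lower in FT (-0.69, SE 0.04) and Bupropion (-0.29). In mPOA it was 109 ± 4.88 CPM in Control, 135 ± 2.67 in Maltodextrin, 39.7 ± 4.68 in FT, 65.0 ± 7.73 in Bupropion, 50.1 ± 4.37 in Desipramine and 118 ± 7.74 CPM in Probiotics. In NACShell the drug groups lay above Control, which had 9.38 ± 0.941 CPM of Myh11. There FT had 19.7 ± 3.65, Bupropion 20.0 ± 1.89 and Desipramine 21.9 ± 1.94 CPM. Cnn1, the contractile regulator calponin, was lower in Desipramine by 1.50 on the log2 scale (SE 0.09). Notch3, the mural Notch receptor, was higher in FT (0.74, SE 0.14), as was Mcam (0.15). Cox4i2 and Lmod1 were higher in Bupropion (0.53 and 0.26) and in Probiotics (0.70 and 0.34), and Cox4i2 was lower in Maltodextrin (-0.43). Pde5a was higher in Desipramine (0.48) and Maltodextrin (0.23), Atp13a5 in Desipramine (0.18) and Ednra in Maltodextrin (0.24). Tinagl1 (-0.30) and Atp13a5 (-0.23) were lower in Probiotics.

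Of 31 further endothelial genes tested, 17 were lower and 3 higher in FT (median -0.17), 15 and 5 in Desipramine (median -0.11), 12 and 8 in Bupropion (median 0.02), 10 and 9 in Probiotics (median 0.05), and 11 and 5 in Maltodextrin (median 0.01). The lower counts in Desipramine, Bupropion and Maltodextrin were near the shares of all genes given above. Slc16a1, a monocarboxylate transporter of the barrier, was lower in FT (-0.61), Bupropion (-0.75) and Probiotics (-0.69). Itm2a was lower in FT (-0.59) and Bupropion (-0.35). Higher were Sox17 (0.44) and Rasip1 (0.37) in FT, and Ramp2 (0.39) and Egfl7 (0.53) in Bupropion. Abcg2 (0.32) and Slc38a5 (0.42) were higher in Probiotics and lower in Maltodextrin (-0.45 and -0.47). Tie1, an endothelial receptor kinase, was lower in Desipramine (-0.66), and Abcb1a, the barrier's P-glycoprotein pump, was higher there (0.32, SE 0.04) and in Maltodextrin (0.25).

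Among 14 ligands and receptors that vessel cells signal with, 5 were higher and 6 lower in FT (median -0.03), 4 and 7 in Desipramine (median -0.11), 4 and 4 in Bupropion (median 0.04), 7 and 4 in Probiotics (median 0.11), and 3 and 3 in Maltodextrin (median -0.02). The FT and Desipramine counts of lower genes and medians were near those of all genes. Vegfa, the ligand of the receptor that Flt1 encodes, was higher in FT (1.01, SE 0.10), Desipramine (0.92, SE 0.10) and Maltodextrin (0.61, SE 0.10), and was lower in Probiotics (-0.68). Tgfbr2, a receptor for transforming growth factor beta, was lower in FT (-0.49) and Desipramine (-0.80). Edn1, the vasoconstrictor endothelin, was lower in FT (-0.79, SE 0.10). Notch1 was higher in FT (0.67), Bupropion (0.39) and Probiotics (0.50), and Aplnr was lower in Bupropion (-0.43) and Desipramine (-0.36).

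Across the 60 group means of log2(CPM + 1), the genes most like Tagln among 9663 with a mean over 5 CPM were Crip1 (Pearson r = 0.901), Flna (0.848), Mgp (0.837), Des (0.785) and Slc6a13 (0.784). Those most like Rgs5 included Akr1cl (0.788), Ube2j1 (0.786), Cdh5 (0.757) and Esam (0.716), and those most like Cldn5 were Tie1 (0.784), Hspa12b (0.765), Galt (0.719), Srgn (0.715) and Afap1l1 (0.715). Of these, Cdh5, Esam and Tie1 are endothelial genes, Des is a smooth muscle gene and Slc6a13 is a gene of the leptomeninges. Between members, r was highest for Tagln with Acta2 (0.815), Myl9 with Tpm2 (0.795) and Rgs5 with Pecam1 (0.772), and Rgs5 was more like Pecam1 and Flt1 (0.592) than like any other mural member (0.138 to 0.357). The 15 pairs of mural members had a median r of 0.369, the 3 endothelial pairs 0.599 and the 18 mixed pairs 0.277. The groups share regions and treatments, so these values are a description.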

How the data were processed

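The deposited table holds gene counts of 300 libraries, whole numbers that the authors made with no scaling. The submitters' processing notes name FastQC, STAR, HTSeq and the build rn6, whose versions, strand setting and handling of shared reads were not given in the sources used here. Labels gave each column its region, treatment and replicate. CPM used raw totals, and replicate pairs were checked to be distinct libraries. The members and gene lists were chosen with earlier results of these data known. Tests were edgeR 4.0.16 quasi-likelihood fits (R 4.3.3; TMM scaling, filterByExpr, Benjamini-Hochberg adjustment over all genes tested, threshold 0.05) over all 6 treatments, in each region (30 libraries) and on counts summed over the 10 regions per treatment replicate (30 sums). The all-region fit weights regions by their counts. Alternatives used DESeq2 1.42.0, limma 3.58.1 and others. On simulated FT and Control data, the all-region fit recovered 83.1% of genes changed by 1.2-fold, and the PLC fit recovered 6.25% at 1.2-fold, 53.4% at 1.5-fold and 93.3% at 2-fold. The simulation gave every gene the same spread, changed few genes and kept a gene's fold equal in all regions. These shares need not hold for the data themselves. All members were named. From each list and comparison, a rule picked up to 2 genes called higher and 2 called lower with the smallest adjusted p. Only some of the genes picked are printed, so those named from a list need not be its full selection. Lum, Slc6a13, Actb, Dbh, Slc17a7 and Pomc, and Myh11 in mPOA and NACShell, were chosen after their values were seen. Sequences are from RefSeq (GRCr8). A gene that the naming rule picks by likeness to Rgs5 is not reported here.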

Additional observations from a re-analysis of the deposited data

Results flagged for a closer look

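In 8 of 108 groups of 5 libraries or treatment replicates, 1 value stood apart, with a gap to its nearest neighbour over 0.71 of the group's range. Chance alone flags about 1 in 20 such groups. Over all regions these were Rgs5 at 26.72 CPM in Control replicate 2 and 35.56 CPM in Maltodextrin replicate 1, Flt1 at 82.67 CPM in FT replicate 1, and Pecam1 at 10.44 CPM in the same FT replicate. In mPOA they were Myl9 at 44.64 CPM in FT replicate 1, Tpm2 at 100.8 CPM in Maltodextrin replicate 5, Pdgfrb at 15.16 CPM in Bupropion replicate 2 and Pecam1 at 9.903 CPM in Probiotics replicate 5. FT replicate 1 accounts for 3 of the 8 values. The change of all 9 members differed between regions in each of the 5 comparisons, with 9 of 9 called for FT, Bupropion, Desipramine, Probiotics and Maltodextrin, where 82.3% to 92.6% of all genes were called.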

How the results depend on the processing

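Over all regions, the 45 member calls did not change with DESeq2, RLE size factors, no filter on low counts or the replicate block. Replicate numbers do not pair these libraries, since the median correlation of same-numbered libraries was 0.0148 to 0.0375, and the replicate block left 7 of 9 members lower in FT. With each treatment replicate left out in turn, 442 member results were the same, 7 lost their call and 1 gained it. Counts of members higher then ranged from 0 to 1 in FT, from 1 to 2 in Probiotics and from 1 to 2 in Maltodextrin.

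With Maltodextrin as reference, 0 members were higher in FT, 2 in Bupropion and 0 in Desipramine, 8 member-by-region tests were higher in Desipramine, and signs turned for Cldn5 (0.016) and Flt1 (-0.162) in FT, Acta2 in ILC of FT (-0.672), Myl9 (0.344), Tpm2 (0.092) and Flt1 (-0.0712) in Bupropion, Myl9 in ILC (0.519) and Flt1 in mPOA (-0.0019) of Bupropion, and Flt1 in Desipramine (-0.0433). With raw library totals, 24 member-by-region tests were higher in FT, 30 were lower in Desipramine, 2 members were higher in Desipramine and 2 lower in Maltodextrin, and Rgs5 in ILC of FT (0.0174), Cldn5 in FT (0.00594), and Rgs5 (0.00143) and Pecam1 (0.137) in Desipramine turned. Without mPOA, 2 members were higher in Bupropion and 3 lower in Maltodextrin, and Acta2 turned in FT (0.178), Bupropion (0.300), Desipramine (0.0404) and Maltodextrin (0.0747). With limma on the mean over regions, 2 members were higher and 3 lower in Bupropion, 1 was higher in Probiotics and 3 were lower in Maltodextrin, and Myl9 (0.0813) and Acta2 (0.235) in Bupropion and Acta2 in Maltodextrin (0.119) turned. Without ILC and LConly, 1 member was higher in Probiotics and 1 in Maltodextrin, and Myl9 in Bupropion was 0.0405. With mPOA, Raphe, PLC, CGC and NACShell alone, 0 members were higher and 5 lower in Probiotics, 3 member-by-region tests were higher there, 1 member was higher in Maltodextrin, and Myl9 in Probiotics was -0.136. With the 2 treatments alone in the fit, 0 members were higher in FT and 5 lower in Probiotics. The shares of all genes called under the alternatives of this section are not given. Their counts therefore show how the calls moved and are not results about the members. With raw library totals the median of all genes itself moved by 0.175 in FT, 0.208 in Desipramine and 0.0866 in Maltodextrin.

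The mural minus endothelial level moved by more than its SD with those 5 regions alone (-0.318 in Control, -0.432 in Maltodextrin, -0.425 in Probiotics), without mPOA (-0.609 in Control, -0.710 in Maltodextrin, -0.586 in Bupropion, -0.616 in Probiotics) and with a pseudocount of 1 CPM (-0.545 in Maltodextrin). The causes of these changes were not tested. Depth limits low genes: the fewest Acta2 counts in a library were 0 in BLA and 1 in dorDG of Desipramine, and 1 in dorDG of Probiotics.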

Other observations

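Lists of genes of other brain cells were counted over all regions. Of all genes, 35.0% were lower and 26.9% higher in FT, 36.5% and 21.6% in Bupropion, 44.6% and 26.0% in Desipramine, 22.5% and 33.3% in Probiotics, and 30.5% and 18.0% in Maltodextrin. Of 10 choroid plexus genes tested, 8 were higher in FT, 8 in Bupropion, 7 in Probiotics and 9 in Maltodextrin with none lower, and 3 were lower with none higher in Desipramine. Of 15 microglia and macrophage genes, 12 were lower and 0 higher in FT, 9 and 1 in Bupropion, 11 and 3 in Desipramine, 1 and 5 in Probiotics, and 10 and 0 in Maltodextrin. Of 16 leptomeningeal and fibroblast genes, 9 were lower and 6 higher in FT, 10 and 0 in Bupropion, 9 and 2 in Desipramine, 9 and 5 in Probiotics, and 5 and 4 in Maltodextrin. Of 9 oligodendrocyte genes, 6 were lower and 2 higher in FT, 4 and 1 in Bupropion, 8 and 1 in Desipramine, 3 and 1 in Probiotics, and 4 and 0 in Maltodextrin. The choroid plexus genes lower in Desipramine, the leptomeningeal genes lower in Maltodextrin and the oligodendrocyte genes lower in Bupropion were near or below the share of all genes. The part of these cells in the vessel gene values over all regions was not tested.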
